A study of Mus musculus with 13 samples.

Results

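The cells described here are 120 crypt cells from the colon epithelium of germ-free mice, chosen for high RNA of Slc12a2, Fgfr2, Clca3b and Kcnq1. They are 15.6% of the 768 germ-free cells and belong to a series of 4183 cells. Germ-free cells were kept if they had at least 500 detected genes, under 30 transcripts per 10000 of the goblet products Muc2, Fcgbp and Zg16 together, and under 3 per 10000 of Cyp2c55, which encodes a cytochrome P450. Of the 370 cells that passed, the 120 with the highest mean deposited value over the 4 genes were taken. The other 648 germ-free cells are 250 that passed and were not taken, 219 with Cyp2c55, 78 with goblet products and 101 with few genes.

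The series asks how microbes and the nicotinic acid they make bear on regional identity in the colon. The germ-free mice (Germ-free C57BL/6J, batch2) gave 2 cDNA libraries, and antibiotic-treated mice (wild type C57BL/6J, batch1) gave 3; the sources used here do not name the antibiotics, doses, ages or numbers of mice. Cells of each condition were pooled and sorted as EPCAM+ CD45- epithelium, with CD44+ and CD44- cells taken in equal numbers, so the balance of crypt and surface cells was set by the sort. Since each condition is 1 pool, and the cells were chosen by their own RNA, no test was run and each comparison is a description.

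In the colon, stem and progenitor cells divide in the lower crypt, and their daughters differentiate into absorptive colonocytes and goblet cells as they move up to the surface. Crypt cells secrete chloride: the cotransporter NKCC1, made by Slc12a2, brings chloride in from the blood side, the channel CFTR lets it out into the lumen, and the potassium channel KCNQ1 with its partner KCNE3 keeps the driving voltage. Surface colonocytes do the reverse and absorb sodium and chloride through exchangers such as Slc9a3 and Slc26a3. FGFR2 is a fibroblast growth factor receptor, and Clca3b belongs to the family of calcium-activated chloride channel regulators.

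Germ-free cells carry the number 3 or 4 in their names, called cell sets 3 and 4 here; these numbers match no library label, so what they stand for is open. Cell set 3 gave 27 chosen cells of 306, and cell set 4 gave 93 of 462. Of the cells that passed the filters, 22.0% were taken in cell set 3 and 37.7% in cell set 4. Median UMI (unique molecules) per cell were 1878 in chosen and 1013 in other cells of cell set 3, and 4396 in chosen and 4713 in other cells of cell set 4. In summed UMI, mitochondrial genes took 19.7% in chosen and 18.5% in other cells. Xist, a transcript of female cells, was at 1023 CPM (the gene's UMI scaled to a common total, in counts-per-million units) in chosen and 576 CPM in other cells, and 4 Y-linked genes together at 154 and 127 CPM, so the pool held cells of both sexes. Gip, a hormone of enteroendocrine cells, was found in 56.7% of chosen and 50.2% of other cells, and in 49.2% to 60.7% of the 3 other parts that met the limit on genes. In cells with few genes the share was 25.7%. Whether free RNA gave these shares was not tested, so a share of cells with a UMI is not read as the share that makes the RNA.

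The 4 genes of the rule are given as a description, since they chose the cells. In GENCODE vM21 (mm10), Slc12a2 spans chr18:57878678-57946821, Fgfr2 chr7:130162451-133123350, Clca3b chr3:144822623-144849357 and Kcnq1 chr7:143106362-143427042. Slc12a2 was at 683 CPM in chosen cells (869 in cell set 3 and 663 in cell set 4), against 155 CPM in other cells (211 in cell set 3 and 146 in cell set 4). It was not particular to the chosen cells: goblet-product cells had 833 CPM of it, and 75.6% of them held a UMI, against 78.3% of chosen cells. Clca3b was at 423 CPM in chosen cells (417 and 423 in cell sets 3 and 4), against 33.3 CPM in other cells (57.9 and 29.4), and goblet-product cells had 18.5 CPM of it. Kcnq1, the potassium channel, was at 454 CPM in chosen cells (382 and 462 in cell sets 3 and 4) and 65.4 CPM in other cells (78.2 and 63.4). Fgfr2 was the most widespread, at 769 CPM in chosen cells (695 and 778 in cell sets 3 and 4) and 281 CPM in other cells (310 and 276). Its annotated span overlaps Dmbt1, an abundant gene on the opposite strand, and the sources used here do not say whether counting used strand.

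The 4 genes did not all occur in each chosen cell. Just 29 of the 120 cells held UMI of all 4, 52 held 3, 35 held 2 and 4 held 1. The mean value behind the choice reached 2.74 (natural log scale), and there was no gap at its edge: the last cell taken had 0.777 and the first not taken 0.767. The last 5 cells taken held 2 to 8 UMI of the 4 genes together, and the first 5 not taken held 2 to 4. Cells with goblet products, which the filters removed, had a median of 0.770, next to 1.44 in chosen cells and 0.340 in cells that passed and were not taken.

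**Figure D1:**
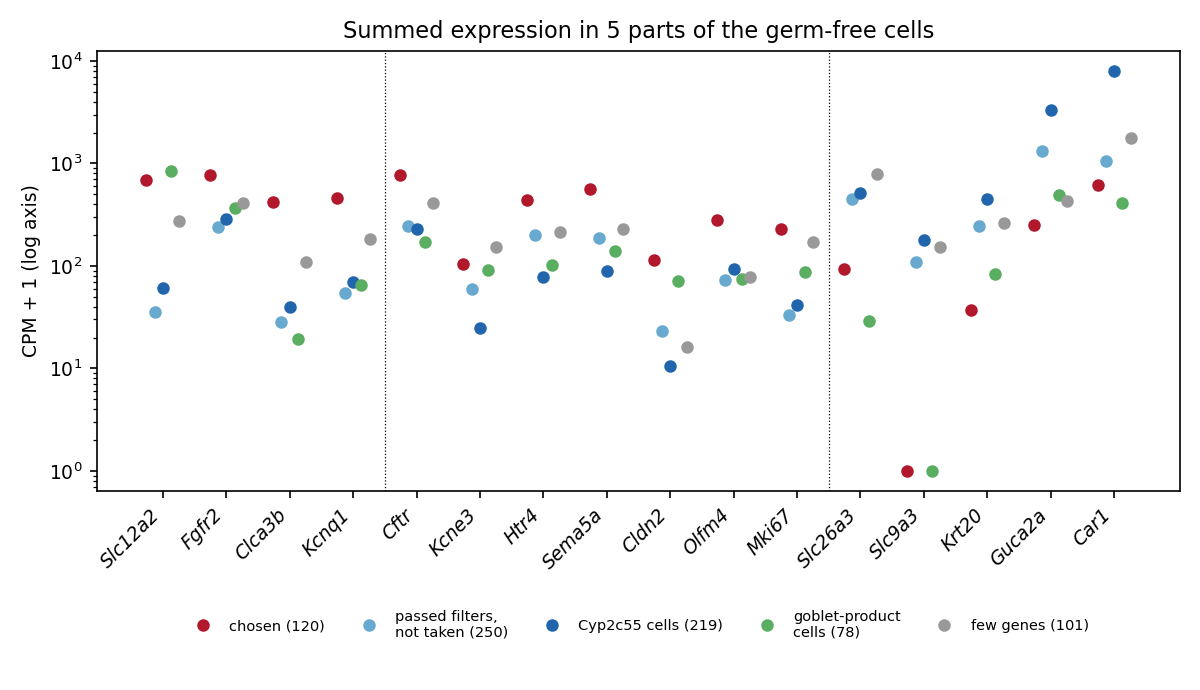
Summed expression (CPM + 1, log axis) of 16 genes in the chosen cells and the 4 other parts of the germ-free cells, 1 point per gene and part; the first 4 genes are those of the rule. Chosen cells lead in Cftr, Htr4, Sema5a, Cldn2, Olfm4 and Mki67 and lie below the passed cells and the Cyp2c55 cells in Slc26a3, Slc9a3, Krt20 and Guca2a.

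Against all other germ-free cells, the chosen cells had more RNA of Cftr, of 7 of 15 ranked crypt base genes and of 5 of 6 ranked G2 and M phase genes, and less RNA of 18 of 24 surface colonocyte and 9 of 15 salt absorption genes. Of 4686 genes with at least 100 UMI, 174 (3.71%) were higher and 327 (6.98%) lower in chosen cells, where higher, lower and called mean a change of 2-fold or more that has the same direction in both cell sets. The 4 genes of the rule are among the 174, and Muc2, Fcgbp, Zg16 and Cyp2c55, which the filters used, are among the 327. The median log2 ratio of CPM + 1 over all ranked genes, chosen over other cells, was -0.03. Cell set 3 gave only 57557 UMI of the 579680 UMI of the chosen cells, and from cell set 3 alone 14 genes were higher and 73 lower, so the sizes rest on cell set 4.

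Cftr, the chloride channel of the crypt, was the chloride secretion gene with the clearest excess. Its gene spans chr6:18170687-18322768 (mm10). It was at 762 CPM in chosen cells (764 in cell set 3 and 762 in cell set 4), against 232 CPM in other cells (382 in cell set 3 and 209 in cell set 4). Both chosen sets lay above both other sets, 3.28-fold higher together (2.89 to 3.72; intervals on ratios are exact conditional binomial ones at the 95% level and cover counting error only). It was found in 98 of 120 chosen cells (81.7%) and in 34.3% of other cells. With each cell thinned to 1000 UMI, which kept 115 chosen and 510 other cells, the shares were 52.2% and 16.5%. The other parts had less of it, with 245 CPM in cells that passed and were not taken, 229 CPM in Cyp2c55 cells, 169 CPM in goblet-product cells and 414 CPM in cells with few genes.

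The rest of the secretion machinery moved little. Of 18 ranked genes on a chloride secretion list, which leaves out the 4 genes of the rule, Cftr alone was higher, 2 were lower and 15 were not called, with a median log2 ratio of 0.08. Kcne3, the partner of KCNQ1, was at 104 CPM in chosen cells (34.7 and 111 in cell sets 3 and 4) and 49.2 CPM in other cells (89.7 and 42.7). The cell sets ran opposite ways, so it was not called. Atp1b1, a sodium pump subunit, had a log2 ratio of -0.51, and Pde4d, a phosphodiesterase that breaks down cyclic AMP, 0.11; neither was called. The 2 lower genes were Ano1, a calcium-activated chloride channel, at 29.3 CPM in chosen and 186 CPM in other cells (6.33-fold lower, 3.91 to 10.96), and Clcn2, a chloride channel of surface cells, 2.26-fold lower (1.47 to 3.64). Htr4, a serotonin receptor that raises cyclic AMP, was on no list and was named after its values were seen: it was at 438 CPM in chosen cells and 132 CPM in other cells, 3.31-fold higher (2.80 to 3.91).

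Relatives of the genes of the rule were mostly not called. Slc12a7 and Slc12a8, of the same cation-chloride cotransporter family as Slc12a2, had log2 ratios of -0.03 and -1.21, and neither was called. In the CLCA family, Clca4a, a colonocyte member, had a log2 ratio of -0.23, and Clca1, a goblet cell product, was lower at 36.2 CPM in chosen and 515 CPM in other cells. Clca3a2 stayed under the filter and was not ranked, with 26 UMI in chosen and 14 UMI in other cells, though chosen cells held fewer UMI in all. In antibiotic cells taken by the same rule, Clca3a1 and Clca3a2 were higher and Clca1 and Clca4a lower than in other antibiotic cells. Without antibiotic cells that share a barcode, 1 of 3 ranked members was higher and 2 were lower. Of 10 ranked genes of FGF receptor signalling other than Fgfr2, 1 was lower (Flrt3, a membrane protein that binds FGF receptors, 2.60-fold) and 9 were not called. The list's median log2 ratio was -0.02, and its most abundant members Esrp1, Spred2, Cbl and Frs2 lay between -0.23 and 0.65. Among 5 ranked potassium channel genes, Kcnq1ot1 was higher, at 323 CPM in chosen and 45.6 CPM in other cells. It is the antisense transcript that lies within Kcnq1, and reads of the pair may not have been separated, so its value is not independent of the rule.

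Of 15 ranked genes on a crypt base and stem cell list, 7 were higher, 1 was lower and 7 were not called, with a median log2 ratio of 1.31. Without cell set 4 just 2 of the genes could be ranked, with a median of -0.20, and with at least 300 UMI 8 could be ranked, with a median of -0.04. The 7 were Olfm4, a secreted protein of crypt base cells, Rnf43 and Znrf3, ubiquitin ligases that remove Wnt receptors, Ephb2, a receptor that places cells along the crypt, Lrig1, a brake on EGF receptors, Cd44, a cell surface receptor, and Zbtb38, a zinc finger protein. Their ratios lay between 2.49-fold for Lrig1 and 4.29-fold for Cd44. CD44 was the marker of the sort, so the excess of Cd44 (117 CPM in chosen and 27.4 CPM in other cells) lies in the gene that set the gate, and the part of the gate in it was not tested. Rnf43 was at 138 CPM in chosen cells (156 and 136 in cell sets 3 and 4) and 43.2 CPM in other cells (43.4 and 43.2), with no overlap between chosen and other sets. Not called were Tcf7l2, the Wnt effector, and Lgr4, a receptor for R-spondin, at log2 ratios of -0.78 and -0.01. Aqp4, a water channel, was the lower one (79.4 CPM in chosen and 165 CPM in other cells).

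The most specific stem cell genes were too sparse to rank. Lgr5, the R-spondin receptor of stem cells, had 32 UMI in 13 of 120 chosen cells and 7 UMI in 5 of 648 other cells, and 15 of the 32 UMI were in 1 cell. Smoc2, another stem cell marker, had 24 UMI in 18 of 120 chosen cells and 24 UMI in 17 of 648 other cells. Axin2, a Wnt target, had 28 UMI in 22 chosen cells and 41 UMI in 33 other cells, and Ascl2, a stem cell transcription factor, had 1 UMI in chosen and 4 UMI in other cells. Chosen cells held 579680 UMI in all and other cells 2.52e+06 UMI, so equal UMI stand for a higher level in chosen cells. Scaled to these totals, Smoc2 and Axin2 were higher in chosen than in other cells, though neither was ranked. The chosen cells therefore held RNA of crypt base genes, but few had UMI of Lgr5, and they are called by their rule here and not stem cells. Olfm4 was uneven as well: it was found in 42 chosen cells, and 1 of them held 28.2% of its 163 UMI.

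Of 15 ranked sodium and chloride absorption genes, 9 were lower, none was higher and 6 were not called, with a median log2 ratio of -1.20. The 9 include Kcnma1, a potassium channel gene, and goblet-product cells, which the filters removed, had more of it than chosen cells. Against cells that passed and were not taken, 5 of 12 ranked absorption genes were lower, and Kcnma1 was not among them. Of 24 ranked surface colonocyte genes, 18 were lower, none was higher and 6 were not called, with a median of -1.23. Slc9a3, the sodium-proton exchanger of the brush border, had no UMI in the 120 chosen cells, which allows a share of up to 2.5% of cells with a UMI (3 counts of 120; the exact interval ends at 3.03%), and 321 UMI in 122 other cells. Against the limit of 3 UMI over the chosen cells it was at least 24.6-fold lower. This lack was not particular to the chosen cells: the 78 goblet-product cells had no UMI of Slc9a3 either. Slc26a3, the chloride-bicarbonate exchanger, was at 91.4 CPM in chosen cells (139 and 86.2 in cell sets 3 and 4) and 431 CPM in other cells (437 and 430), 4.71-fold lower (3.58 to 6.33). It was found in 15.8% of chosen cells and 6.41% of goblet-product cells. Car1, a carbonic anhydrase, was 6.69-fold lower (6.02 to 7.45), at 621 CPM in chosen and 4154 CPM in other cells. Against cells that passed and were not taken its log2 ratio was -0.75 and it was not called.

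Krt20, a keratin of differentiated cells, was at 36.2 CPM in chosen cells (17.4 and 38.3 in cell sets 3 and 4) and 317 CPM in other cells (292 and 320), 8.74-fold lower (5.68 to 14.19). Guca2a, the hormone guanylin, was 8.39-fold lower, Saa1, a serum amyloid protein of the mucosa, 10.11-fold lower and Emp1, an epithelial membrane protein, 10.27-fold lower. Lypd8, a surface protein that keeps bacteria off the epithelium, was at 768 CPM in chosen and 3074 CPM in other cells, and Muc3, a membrane mucin, was 2.30-fold lower. Nr3c2, the aldosterone receptor, was 2.21-fold lower (680 CPM in chosen and 1503 CPM in other cells). Car2, a carbonic anhydrase of crypt and surface cells, and Nedd4l, which removes sodium channels, had log2 ratios of -0.07 and -0.13 and were not called. Chosen cells kept some surface RNA: the surface list summed to 4913 CPM in chosen cells, 12734 CPM in cells that passed and were not taken, 17119 CPM in Cyp2c55 cells and 7255 CPM in goblet-product cells.

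**Figure D2:**
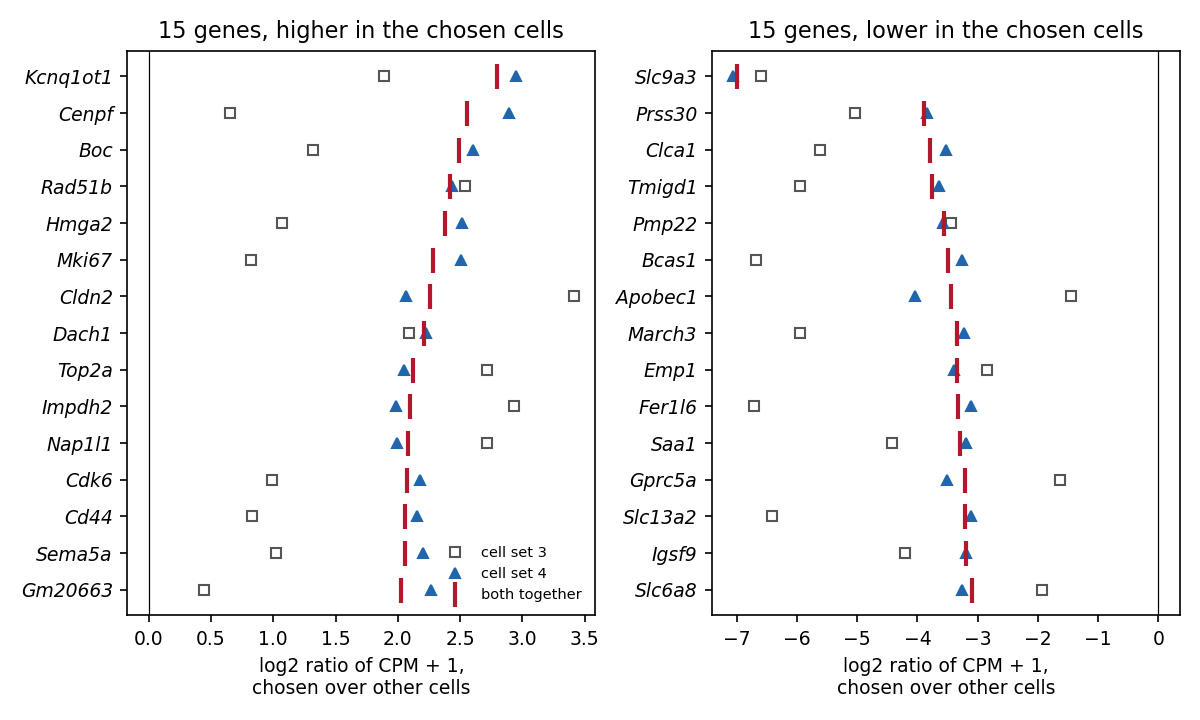
Log2 ratio of CPM + 1, chosen over other germ-free cells, of the 15 genes with the largest and the 15 with the smallest ratio among those with the same direction in both cell sets, for cell set 3 (squares), cell set 4 (triangles) and both together (bars). The 15 higher genes lie between 2.03 and 2.80 for both sets together; in cell set 3 a single UMI is worth 17.4 CPM in chosen cells, and 8 of the 15 lower genes had no UMI there.

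The 15 genes with the largest ratio outside the rule had log2 ratios between 2.03 and 2.80. Besides Kcnq1ot1, they held 3 cell cycle genes (Cenpf, Mki67 and Top2a), Boc, a co-receptor for hedgehog ligands, Hmga2, a chromatin protein of growing and fetal tissue, and Dach1, a transcriptional repressor. Sema5a, a transmembrane semaphorin, was the most abundant of the 15, at 568 CPM in chosen cells (382 and 588 in cell sets 3 and 4) and 136 CPM in other cells (188 and 127), 4.18-fold higher (3.59 to 4.88). It was found in 75.0% of chosen and 25.6% of other cells. Cdk6, a kinase of early G1, was 4.26-fold higher (3.38 to 5.38), and Cldn2, a leaky claudin of crypt tight junctions, 4.96-fold higher (3.42 to 7.21). Impdh2, an enzyme of guanine nucleotide synthesis, Nap1l1, a histone chaperone, Rad51b, a DNA repair protein, and the antisense transcript Gm20663 made up the rest with Cd44.

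The 15 genes with the smallest ratio had log2 ratios between -7.00 and -3.10. Clca1, Bcas1 and Fer1l6 are goblet cell genes, and against cells that passed and were not taken their log2 ratios were 0.87, 0.02 and 1.38. They did not meet the filter to be ranked in that comparison. The colonocyte genes of the group kept their sign there, such as Slc9a3, Emp1 (-2.58) and Saa1 (-3.97). The others were Prss30, a serine protease, Tmigd1, an adhesion protein of the brush border, Slc13a2, a citrate transporter, Slc6a8, a creatine transporter, Apobec1, an RNA editing enzyme, Gprc5a, Pmp22, Igsf9 and March3.

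Cell cycle genes went with the chosen cells. Of 6 ranked G2 and M phase genes, 5 were higher and 1 was not called, with a median log2 ratio of 1.68. Mki67, the proliferation antigen, was at 229 CPM in chosen cells (139 and 239 in cell sets 3 and 4) and 46.4 CPM in other cells (78.2 and 41.4), 4.94-fold higher (3.83 to 6.39). Top2a, a topoisomerase of dividing cells, was 4.44-fold higher, Cenpf, a centromere protein, 6.06-fold higher, Hmgb2, a chromatin protein, 2.36-fold higher, and Smc4, a condensin subunit, 2.30-fold higher. Of 3 ranked S phase genes, Nasp, a histone chaperone, was 2.22-fold higher (1.55 to 3.14), and Pcna, the replication clamp, had a log2 ratio of 0.88 and was not called. Just 9 of 60 listed cell cycle genes had enough UMI to rank. A gene that had enough only through the chosen cells could not be called lower.

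In promoters of G2 and M phase genes, the cell cycle homology region (CHR, TTTGAA) and CCAAT boxes bind the complexes that hold these genes off in resting cells and turn them on before mitosis. RefSeq promoters (GRCm38.p6, 250 bases before to 50 after the start) were at hand for 4 of the 5 higher genes, and all 4 held both motifs on either strand, where 6.92% of 32544 promoters of that length do. TTTGAA alone is in 17.8% of them and CCAAT in 37.4%, and no match overlapped another kind. The 250 bases before the start are shown for the 3 genes whose TTTGAA lies there, 5′ to 3′ on the gene's strand, with both motifs (or their reverse complements) in capitals. In Cenpf the match begins after the start. The genes and motifs were picked with the values known, and a match is a description and not a binding site. The windows are chr7:135716380-135716629 on the minus strand for Mki67, chr11:99024190-99024439 on the minus strand for Top2a and chr8:57511593-57511842 on the plus strand for Hmgb2.
Mki67: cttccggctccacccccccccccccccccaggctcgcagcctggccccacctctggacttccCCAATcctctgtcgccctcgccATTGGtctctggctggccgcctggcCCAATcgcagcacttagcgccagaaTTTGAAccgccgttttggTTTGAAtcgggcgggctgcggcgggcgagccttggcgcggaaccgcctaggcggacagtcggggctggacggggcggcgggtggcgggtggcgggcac
Top2a: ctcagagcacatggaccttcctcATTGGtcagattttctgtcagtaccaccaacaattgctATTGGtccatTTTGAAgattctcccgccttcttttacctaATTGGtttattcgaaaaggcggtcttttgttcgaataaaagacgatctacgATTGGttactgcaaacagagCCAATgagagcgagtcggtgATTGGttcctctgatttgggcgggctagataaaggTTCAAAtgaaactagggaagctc
Hmgb2: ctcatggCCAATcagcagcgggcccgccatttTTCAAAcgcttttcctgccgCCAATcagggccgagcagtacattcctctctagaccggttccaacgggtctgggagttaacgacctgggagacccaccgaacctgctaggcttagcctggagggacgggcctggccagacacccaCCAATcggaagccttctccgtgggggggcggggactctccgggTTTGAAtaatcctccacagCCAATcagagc

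The nearest TTTGAA to the start begins 98 bases before it in Mki67, 23 in Top2a and 30 in Hmgb2. Top2a holds 6 CCAAT boxes, Hmgb2 holds 4 and Mki67 holds 3.

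Each cell's level of the 60 cell cycle genes varied widely. It had a median of 15.7 UMI per 10000 in chosen cells (lowest 0, highest 118) and 4.70 in other cells (lowest 0, highest 143), so the ranges overlapped. A level of 20 or more, a limit set after the values were seen, was reached by 53 of 120 chosen cells (44.2%, exact binomial interval 35.1 to 53.5) and 57 of 648 other cells (8.80%, 6.73 to 11.2). In chosen cells 18 lay between 15 and 25, near that limit. After thinning to 1000 UMI, 48.7% of chosen and 17.3% of other cells held at least 2 UMI of these genes. So the chosen cells mix cycling and non-cycling cells, and no phase is read from the level.

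**Figure D3:**
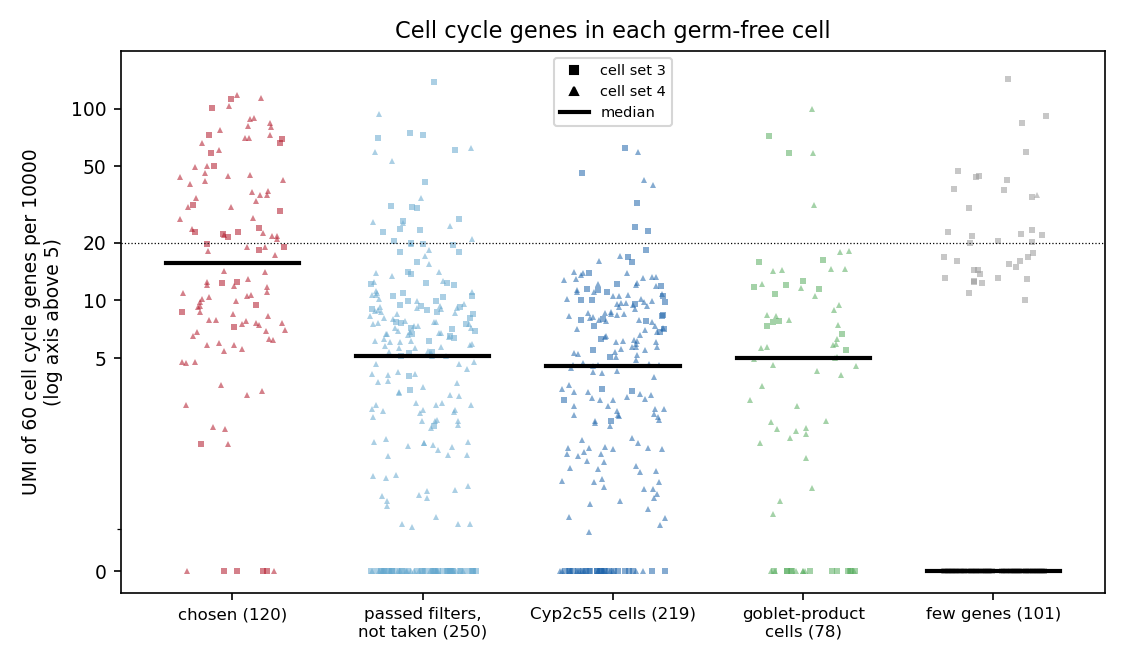
UMI of 60 cell cycle genes per 10000 UMI in each germ-free cell (linear up to 5, logarithmic above), for the chosen cells and the 4 other parts, with cell set 3 as squares, cell set 4 as triangles and bars at the medians. The chosen cells have a median of 15.7, against 5.15 in cells that passed and were not taken and 4.82 in Cyp2c55 cells; the dotted line is at 20.

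Of 12 ranked genes on a G1 and cell cycle exit list, Cdk6 was higher, 4 were lower and 7 were not called, with a median log2 ratio of -0.06. The 4 were Cdkn1a and Cdkn2b, inhibitors of cyclin-dependent kinases, Klf4, a transcription factor of differentiated colon cells, and Btg2, an antiproliferative protein. Klf4 was at 202 CPM in chosen cells (417 and 178 in cell sets 3 and 4) and 667 CPM in other cells (842 and 639), 3.30-fold lower (2.74 to 4.02). Of 7 ranked EGF receptor genes, 3 were lower: the ligands Areg (3.57-fold) and Hbegf (2.60-fold), and Errfi1, a feedback inhibitor. None of 14 Notch and lineage regulators or 12 BMP and TGF-beta genes was called, with median log2 ratios of 0.30 and 0.12. Fos, Jun, Atf3 and Egr1, which tissue dissociation can induce, had log2 ratios between -0.53 and -0.42, and none of the 11 ranked genes of that list was called.

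Adhesion and general epithelial genes were mixed. Of 14 ranked adhesion and Eph genes, 3 were higher (Ephb2, Cldn2 and Cldn15, a claudin that lets sodium through) and 3 were lower. The lower ones included Efnb2, a ligand of Eph receptors (46.6 CPM in chosen and 161 CPM in other cells), and Lamb3, a laminin subunit. Of 13 ranked epithelial genes, 5 were lower (Krt8, Cdh17, Lgals4, Phgr1 and Vil1), with a median log2 ratio of -0.85. Epcam, the adhesion molecule used in the sort, was at 1302 CPM in chosen and 1812 CPM in other cells, found in 109 of 120 chosen cells, and was not called.

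Regional genes had no single direction. Hoxb6, a Hox gene of the proximal colon, was higher, at 94.9 CPM in chosen cells (86.9 and 95.8 in cell sets 3 and 4) and 36.9 CPM in other cells, 2.57-fold (1.81 to 3.63). Of the other 9 ranked proximal genes 3 were lower: Fabp2, a fatty acid binding protein, Car4, a membrane carbonic anhydrase, and Hao2, an oxidase. The proximal list summed to 2148 CPM in chosen cells, 2816 CPM in passed cells not taken and 3963 CPM in Cyp2c55 cells, which the filters removed. Against passed cells not taken, 2 of 6 ranked proximal genes were lower, Car4 and Hao2. The part of the filter in these calls was not tested. Of 5 ranked distal genes 2 were lower, Sgk1, an aldosterone-induced kinase, and Sycn, which was at 455 CPM in chosen and 994 CPM in other cells. The ratio of Sycn had the other sign, 0.38, when 200 cells were taken in place of 120. Hoxb13, the most distal of the HoxB genes, was at 69.0 CPM in chosen and 111 CPM in other cells, and was not called.

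**Figure D4:**
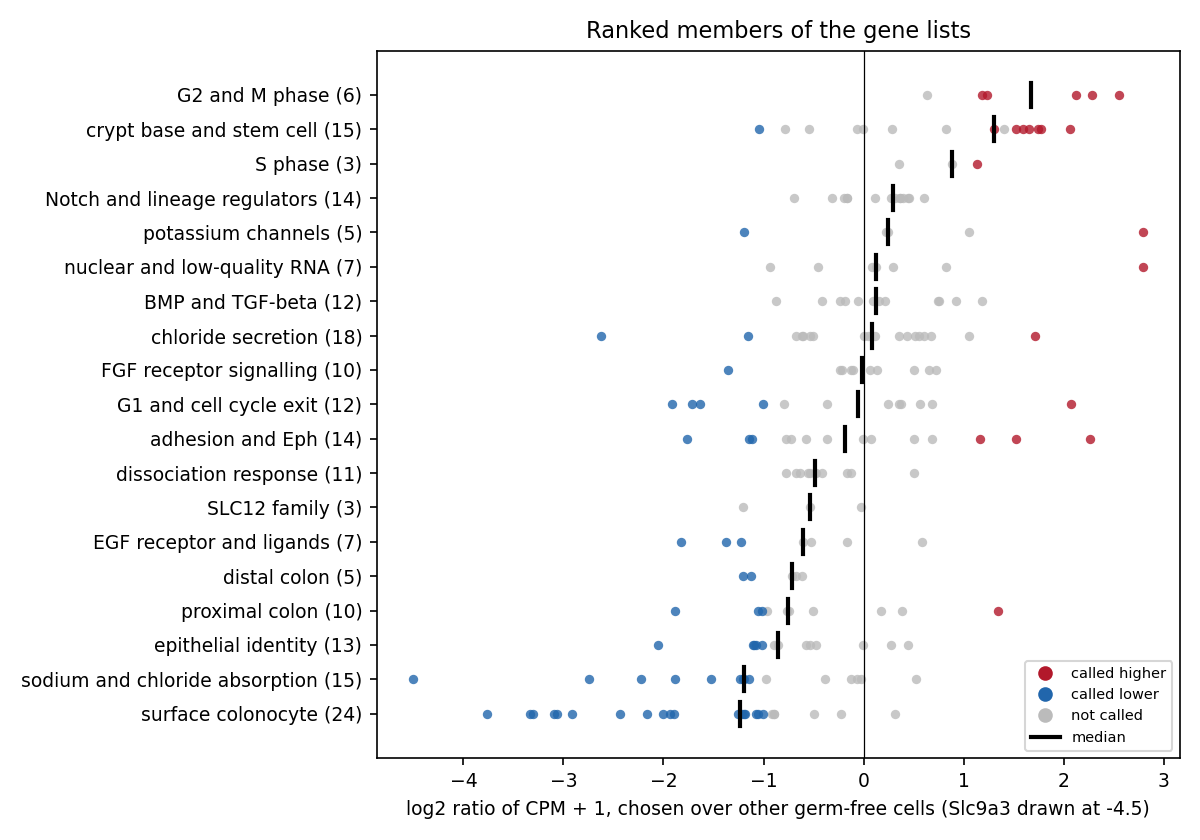
Log2 ratio of CPM + 1, chosen over other germ-free cells, of each ranked member of 19 gene lists (number of ranked members in brackets), coloured by call, with bars at the medians; the genes of the rule are left out and Slc9a3 is drawn at the left edge. Medians run from 1.68 for G2 and M phase to -1.23 for surface colonocyte genes, against -0.03 over all ranked genes.

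Markers of other cell types were given a count for the whole list. Immune markers summed to 12.1 CPM in chosen and 6.74 CPM in other cells, with 9 of 13 at 0 in chosen cells, Ptprc among them. Stromal and endothelial markers summed to 6.90 CPM in chosen and 4.76 CPM in other cells, with 10 of 13 at 0, Col1a1 among them. Tuft cell markers summed to 5.18 CPM in chosen and 12.3 CPM in other cells, with 8 of 11 at 0, Dclk1 among them. Enteroendocrine markers summed to 307 CPM in chosen and 267 CPM in other cells, of which Gip made up 200.1 CPM in chosen and 223 CPM in other cells. The rest of this sum was larger in chosen than in other cells. Chga had 7 UMI in 2 chosen cells and 0 UMI in other cells, and 9 of the 14 UMI of Chgb in chosen cells were in 1 cell. Goblet markers, some of which the filters used, summed to 2149 CPM in chosen cells (1477 and 2224 in cell sets 3 and 4) and 8108 CPM in other cells (11168 and 7623). The other cells include the goblet-product cells, at 54428 CPM, which the filters kept out of the chosen cells. Cells that passed and were not taken had 1422 CPM, less than the chosen cells. Spink4, a goblet and deep crypt secretory product, had 259 UMI in 45 chosen cells, and 134 of these UMI were in 1 cell. The part of such secretory cells in the results was not tested.

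The cells that passed the same filters and were not taken are the closest group. Against these 250 cells, 111 of 2726 ranked genes (4.07%) were higher and 180 (6.6%) were lower in chosen cells, with a median log2 ratio of -0.01. Of the lists, 6 of 13 ranked crypt base genes were higher and none lower, 4 of 4 G2 and M phase genes were higher, and 12 of 20 surface genes and 5 of 12 absorption genes were lower. Cftr was at 762 CPM in chosen and 245 CPM in passed cells, and Gucy2c, the guanylin receptor, joined it among the higher secretion genes. Of 5 ranked distal genes 4 were lower in chosen cells, Hoxb13, Sycn, Cldn8, a tight claudin, and Slc37a2, a sugar-phosphate transporter. Hoxb13 was at 69.0 CPM in chosen and 214 CPM in passed cells, and Sycn at 455 CPM in chosen and 1842 CPM in passed cells. Tff3, a goblet cell peptide, was higher in chosen cells (338 CPM, against 153 CPM in passed cells), though 32.7% of its UMI were in 1 chosen cell.

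The chosen cells were split into 3 groups of 40 by cell cycle level. From lowest to highest, Slc12a2 was at 491, 979 and 616 CPM, Clca3b at 283, 518 and 467 CPM, Kcnq1 at 465, 571 and 353 CPM and Fgfr2 at 726, 705 and 856 CPM. The middle group was highest for 3 of these genes and lowest for Fgfr2, and all 4 are genes that chose the cells. Cftr was at 534, 1025 and 752 CPM in the same order. Olfm4 had 24, 20 and 119 UMI in 13, 10 and 19 cells in the same order, and 2 of the chosen cells held 46 and 20 of its 163 UMI. Its level was 128, 117 and 539 CPM, alike in the lowest and middle groups and largest in the highest group. Hoxb13 went the other way with 112, 75.7 and 27.2 CPM, as did Fut9, a fucosyltransferase, with 128, 105 and 13.6 CPM, and Krt20 with 74.8, 29.1 and 9.06 CPM. The Hoxb13 values rest on 21, 13 and 6 UMI and those of Krt20 on 14, 5 and 2 UMI, so counting error is wide. Mitochondrial genes took 17.9% of UMI in the highest group and 21.5% in the lowest.

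Hoxb13 was found in 26 of the 120 cells, and these are set beside the 94 without it for genes picked after their values were seen. Hoxb6 had 1 UMI (6.83 CPM, exact Poisson interval 0.173 to 38.1) in the 26 cells and 54 UMI (125 CPM, 93.6 to 163) in the 94 cells. Fut9 was at 212 CPM (144 to 301) in cells with Hoxb13 and 32.3 CPM (17.7 to 54.2) in cells without. Sycn was at 1045 CPM with Hoxb13 and 256 CPM without, and Adh1, an alcohol dehydrogenase on the proximal list, at 540 CPM with and 152 CPM without. Slc37a2, on the distal list, was at 41.0 CPM with (6 UMI, all in 1 cell) and 41.5 CPM without (18 UMI in 7 cells), too few cells to compare. Car1 and Cyp2c65, a relative of Cyp2c55, went the other way, at 178 CPM with and 771 CPM without, and at 27.3 CPM with and 150 CPM without. Slc12a2 differed less, at 499 CPM with Hoxb13 and 745 CPM without. Cells with Hoxb13 had more UMI (median 4368.5) than those without (3379), and a cell with 0 UMI may still make the RNA.

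The rule was also run on antibiotic cells, with the lowest value taken in germ-free cells as the limit. It took 331 of 1277 cells that passed (25.9%), of 3415 in all. Before these values are read, the antibiotic cell sets share cell barcodes: 315 between sets 1 and 2, 501 between sets 2 and 3 and 48 between sets 1 and 3, while germ-free cell sets share none with each other or with these. Profiles of the same barcode were more alike than those of different ones (median cosine of 0.511 and 0.335 between sets 1 and 2), and median UMI of those cells were 12934 in set 1 and 914 in set 2. Of the 331 cells taken 153 carry such a barcode, so the 3 antibiotic sets are not independent. Counts over genes and lists are therefore given with all cells and without the 1647 that share a barcode.

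In antibiotic cells, 17 of 23 ranked crypt base genes and 25 of 25 G2 and M phase genes were higher in taken than in other cells, and 20 of 26 surface colonocyte and 11 of 18 absorption genes were lower. Without shared barcodes these counts were 17 of 23, 22 of 22, 21 of 26 and 11 of 18. A gene was ranked if the group with more of it reached 20 CPM. Genes under 20 CPM in other cells, such as Lgr5, were thus ranked through the taken cells and could not be called lower. Of 7324 ranked genes, 1440 (19.7%) were higher and 619 (8.45%) lower in taken cells, with a median log2 ratio of 0.37. Without shared barcodes 1563 (21.5%) were higher and 710 (9.79%) lower of 7256. Leaving out the 8 genes that chose the cells in both conditions, 168 of the 170 genes higher in germ-free chosen cells were ranked and all 168 had the same sign. Of these 143 were called higher (85.1% of them, and 29.7% of the 482 antibiotic calls among genes ranked in both). Without shared barcodes 149 of 168 were called. Of the 323 lower genes, 322 were ranked, 303 had the same sign and 217 were called lower (67.4% of them, and 47.5% of 457), and 223 of 320 without shared barcodes. Among all 4658 genes ranked in both, 58.8% had a positive ratio in antibiotic cells.

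Cftr was at 675, 478 and 656 CPM in taken cells of antibiotic sets 1, 2 and 3, against 152, 157 and 146 CPM in the other cells of those sets. Without shared barcodes it was at 611 CPM in taken and 141 CPM in other cells. Slc26a3 was at 13.6, 5.22 and 9.61 CPM in taken cells, against 388, 289 and 401 CPM in other cells, and without shared barcodes at 8.79 CPM in taken and 419 CPM in other cells. Lgr5 was at 66.9 CPM in taken and 2.46 CPM in other antibiotic cells, next to 55.2 and 2.78 CPM in germ-free chosen and other cells. Without shared barcodes it was at 93.9 CPM in taken and 3.01 CPM in other antibiotic cells. Olfm4 was less even, at 17.3, 171 and 20.7 CPM in taken cells of the 3 sets and 9.63, 7.68 and 12.1 CPM in other cells. Without shared barcodes its sets ran opposite ways and it was not called. Hoxb6, higher in germ-free chosen cells, was at 46.9 CPM in taken and 42.4 CPM in other antibiotic cells (45.6 and 37.9 CPM without shared barcodes) and was not called there, and the difference between conditions was not tested. Condition and batch cannot be told apart.

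**Figure D5:**
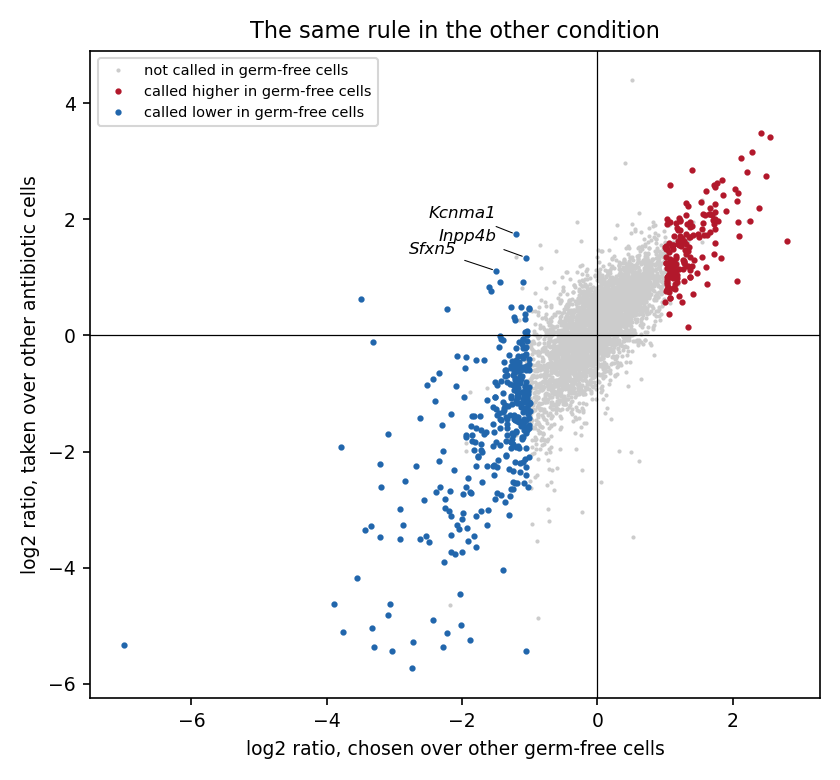
Log2 ratio of CPM + 1 of each gene ranked in germ-free cells: chosen over other germ-free cells on the x axis, cells taken by the same rule over other antibiotic cells on the y axis, coloured by the call in germ-free cells and without the 8 genes of the rule. Of genes ranked in both, all 168 called higher lie above 0 on the y axis and 303 of 322 called lower lie under it; the 3 named genes were called in opposite directions.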

How the data were processed

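Single cells from the pooled, sorted colon epithelium of germ-free and antibiotic-treated mice were sequenced with a 10x 3' kit. Cell Ranger 7.0.0, kallisto, bustools and the build mm10 are named in the submitters' processing notes. The authors deposited natural log values, ln(1 + UMI per 10000); 100% gave whole UMI within 0.01 when reversed, and the sums of these UMI are the counts used here. UMI were summed per group of cells, scaled to CPM, and compared as log2 ratios of CPM + 1. A gene was ranked if both groups together held 100 UMI or more of it and the group with more of it reached 20 CPM. A gene with 20 CPM in just 1 group could therefore be called in just 1 direction. The same holds for a gene that reached 100 UMI only through 1 group. Exact conditional binomial, Poisson and Clopper-Pearson intervals have a level of 95%. Cells were thinned to 1000 UMI where shares are compared across depths. Doublets were marked with Scrublet (Scanpy 1.11.5), which marked 1 chosen and 13 other cells, and were kept. Python 3.11.15, NumPy 2.4.6, pandas 2.3.3 and SciPy 1.17.1 were used, with GENCODE vM21 for gene positions.

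The members and gene lists were chosen with earlier results of these data known. Named were the 15 ranked genes with the largest and the 15 with the smallest ratio and the same direction in each cell set, without ribosomal, mitochondrial, Xist and Y genes and the genes of the rule; up to 4 members of each list with the highest CPM in chosen cells; and the genes of the rule. Other named genes were chosen after their values were seen. Alternatives changed the number of cells taken, the cells compared with, scaling, filters, score and doublets. A few genes that met these criteria are not reported here.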

Additional observations from a re-analysis of the deposited data

Results flagged for a closer look

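The ratios of 3 genes were called in opposite directions in germ-free and antibiotic cells, chosen or taken over other cells; the difference between conditions was not tested. Sfxn5, a mitochondrial carrier, had a log2 ratio of -1.49 in germ-free and 1.11 in antibiotic cells. Inpp4b, a phosphoinositide phosphatase, had -1.05 in germ-free and 1.34 in antibiotic cells. Kcnma1, a calcium-activated potassium channel, had -1.20 in germ-free and 1.74 in antibiotic cells. Without antibiotic cells that share a barcode, the antibiotic ratios were 1.26 for Sfxn5, 1.51 for Inpp4b and 1.59 for Kcnma1. The germ-free values rest on 10, 11 and 25 UMI in chosen cells for Sfxn5, Inpp4b and Kcnma1. In cell set 3 the chosen cells had 17.4, 17.4 and 0 CPM of these genes, and a single UMI is worth 17.4 CPM there. The same direction in cell set 3 therefore rests on at most a single UMI of each gene in chosen cells. Kcnma1 was at 43.1 CPM in chosen and 100 CPM in all other germ-free cells. Goblet-product cells, which the filters kept out of the chosen cells, had 729 CPM of it. The part of these cells in its germ-free ratio was not tested, so its opposite calls are not read as a difference between conditions.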

How the results depend on the processing

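The counts of 174 higher and 327 lower genes moved with the filter on low counts, with depth and with the cells taken or set against them. With 200 cells taken they were 104 and 179, against cells that passed and were not taken 111 and 180, with cells thinned to 1000 UMI 19 and 127, with no filter on low counts 1093 and 1055, and with at least 300 UMI 36 and 172. With at least 1000 genes per cell 216 were lower. Leaving out 1 cell set gave 14 to 174 higher and 73 to 362 lower genes, the lowest counts without cell set 4. The share of higher genes among all calls was 34.7% as reported, 50.9% with no filter and 17.3% with at least 300 UMI. Against cells that passed and were not taken, 6 called genes had the other sign: Bcas1 0.021, Clca1 0.87, Fcgbp 0.91, Fer1l6 1.38, Muc2 1.64 and Tff3 1.14. Of these, Bcas1, Clca1 and Fer1l6 did not meet the filter to be ranked in that comparison. With 200 cells taken Sycn was at 0.38. The cause of these changes was not tested, except that fewer genes were ranked when thinned (915) or without cell set 4 (590). The medians of 10 of 20 lists changed sign in some alternative, among them crypt base genes (-0.04 with at least 300 UMI and -0.20 without cell set 4) and distal genes (0.21 with 200 cells taken). Leaving out the other cells with few genes, an alternative chosen after seeing the data, gave 167 and 330. No paired analysis was possible because each condition is 1 pool and the groups compared are cells of the same pool.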

Other observations

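Gip, the incretin hormone, was at 200.1 CPM in chosen and 223 CPM in other germ-free cells, in 56.7% of chosen and 50.2% of other cells. After thinning to 1000 UMI the shares were 22.6% in chosen and 21.8% in other cells.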
